A study of Mus musculus with 12 samples.

Results

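C2C12 is an established mouse myoblast line that proliferates in serum-rich medium and can be driven to form myotubes. Its open chromatin was mapped by ATAC-seq, in which the Tn5 transposase inserts adapters into accessible DNA of isolated nuclei. The regions described here are peaks of wild-type (WT) cells that lie between genes. No peak in the deposited list of cells knocked out for Runx1 (Runx1KO) overlaps them. A WT peak was a member when it stood in the deposited WT-specific list, when the unlabelled column 11 of that list was empty, and when its centre lay more than 1 kb from every gene of the GRCm38.p6 RefSeq table. This rule gave 2605 members among the 34118 peaks of the WT list. They were compared with the 5874 intergenic peaks of the shared list, which holds the WT intervals that a peak of the Runx1KO list overlaps.

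Both genotypes were sampled at day 0 in growth medium with 20% fetal bovine serum, with 3 samples of WT and 3 of Runx1KO cells. The series also holds cells moved to differentiation medium, which were not used here. How the knockout line was made, and whether it is 1 clone, is not given in the sources used here. Every WT peak name carries the label of the replicate 1 WT sample, and every Runx1KO peak name that of the replicate 1 Runx1KO sample. The values therefore come from 1 library per genotype, their depth is unknown, and no test between genotypes was possible. Differences of depth and differences of genotype cannot be told apart in these lists. Intervals given below are 95% intervals for the counting of peaks and not for the genotypes.

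Regions between genes that are open to Tn5 often hold distal regulatory elements, such as enhancers, where transcription factors bind and act on promoters that may be far away. Runx1 is a DNA-binding factor of the RUNX family that works with its partner Cbfb, and it commonly occupies enhancers together with ETS, AP-1 and other factors. In muscle it is known for its rise after denervation or injury and for its expression in proliferating myoblasts. Enhancers differ more between cell states than promoters do, so the distal fraction of a peak list is where genotypes are usually compared in most detail.

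The label of the cells was checked at the ends of marker genes. Of 7 myoblast markers, 2 had a peak within 1 kb of a gene end in both lists, namely Myod1, the myogenic determination factor, and Des, which encodes the intermediate filament desmin. Myf5, Pax7, Cdh15, Vcam1 and Itga7 had none in either list. No peak stood at the ends of the 4 endothelial and 4 epithelial markers in either list. Peaks were present in both lists at 2 of 4 blood markers (Spi1 and Cd34), 1 of 4 skeletal markers (Sox9) and 1 of 4 neuronal markers (Tubb3). At the 4 adipocyte markers, Cebpa had a peak in both lists and Pparg in the WT list alone. An open gene end is not a measure of expression.

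Of all WT peaks, 27.3% had no overlapping peak in the Runx1KO list. Among the 8755 intergenic WT peaks the share was 32.9%, or 2881 peaks. The members are the 2605 of these whose column 11 was empty, and the remaining 276 carried the mark. Because the rule itself uses the absence of a Runx1KO partner, these shares describe the choice of members and nothing more. Without marked peaks, the WT-specific share of intergenic peaks was 30.7% (2605 of 8479, with a Wilson interval from 29.7 to 31.7). The share was 29.1% in gene bodies (4217 of 14494, interval 28.4 to 29.8) and 14.8% within 1 kb of a gene end (1503 of 10152, interval 14.1 to 15.5).

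Members were mostly weak peaks of the WT list. The −log10 q that the authors deposited for each peak ranged from 1.31 to 54.0 among members, with a median of 8.33 (interval 8.07 to 8.57). Among shared intergenic peaks it ranged from 1.81 to 349, with a median of 19.1 (interval 18.6 to 19.5). The deposited fold enrichment over local background had a median of 6.59 in members and 10.1 in shared intergenic peaks. When the whole WT list was cut into 10 classes of equal size by −log10 q, 26.6% of members (694) fell in the weakest class and 0.154% (4) in the strongest. Shared intergenic peaks were spread more evenly, with 4.99% in the weakest class and 9.96% in the strongest.

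Position and strength were then considered together. In the weakest class, 70.3% of unmarked intergenic peaks were WT specific (interval 67.4 to 73.1), against 71.6% in gene bodies and 65.4% at gene ends. In class 5 the shares were 28.8% between genes (interval 25.9 to 31.9), 27.2% in gene bodies (interval 25.1 to 29.5) and 14.3% at gene ends (interval 12.2 to 16.8). In the strongest class, 4 of 589 intergenic peaks, 1 of 1215 gene body peaks and 0 of 1608 gene end peaks were WT specific. Averaged over the classes with the same weights for each position, the share was 27.2% between genes, 27.1% in gene bodies and 19.4% at gene ends. The weights were the sizes of the classes among all unmarked WT peaks. The intervals of intergenic and gene body peaks overlapped in each of the 10 classes. The intergenic share was above the gene end share in each class, with overlapping intervals in classes 1 and 9.

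**Figure D1:**
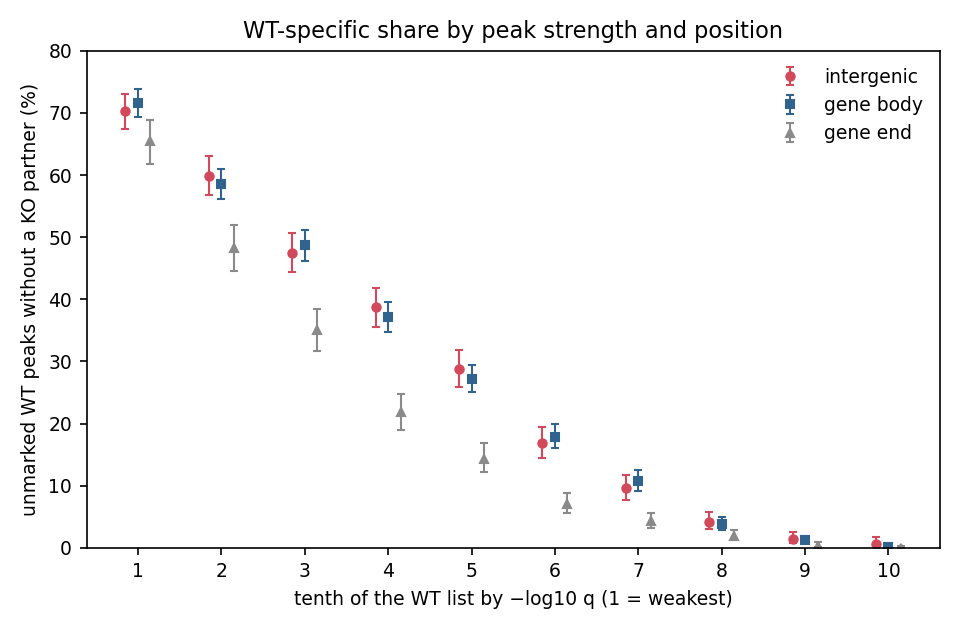
Share of unmarked WT peaks without a Runx1KO partner (y axis, percent) in each of 10 classes of the WT list by −log10 q (x axis, 1 is the weakest class), for peaks between genes, in gene bodies and within 1 kb of gene ends. Bars are 95% Wilson intervals; the intergenic and gene body intervals overlap in each class (70.3% and 71.6% in the weakest) and the gene end points lie lower (65.4%).

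Members were also narrow. The rule asks that no Runx1KO peak overlaps the interval, and a narrower interval is less readily overlapped. Width is therefore not independent of the choice of members. Their width ranged from 124 to 1137 bp with a median of 236 bp (interval 231 to 243), and that of shared intergenic peaks from 124 to 1759 bp with a median of 379 bp (interval 374 to 385). Part of this difference of −143 bp goes with strength. When shared intergenic peaks were weighted to the strength of the members, their median width was 292 bp and the difference was −56 bp. Runx1KO-specific intergenic peaks chosen by the same rule in their own list numbered 934 and had a median width of 260 bp (interval 250 to 267). The narrowest of them was 138 bp wide, against 124 bp among members. These widths come from separate libraries and may not be on the same scale.

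Above a common lower limit of strength, peaks were narrow more often among members than among shared intergenic peaks. The limits of strength and width were chosen after the values were seen. They did not make the classes equal in strength. At a limit of 10 the median −log10 q was 13.3 in members and 22.3 in shared intergenic peaks. Narrow shares at matched strength were not computed. At a −log10 q of at least 10, 23.6% of members (233 of 987, interval 21.1 to 26.4) and 5.13% of shared intergenic peaks (247 of 4819, interval 4.54 to 5.78) were narrower than 200 bp. At a limit of 20 the shares were 13.5% (17 of 126, interval 8.60 to 20.5) and 1.4% (39 of 2795, interval 1.02 to 1.90). The ratio between these shares was larger at the limit of 20 than at 10, but their difference in points was smaller. The higher limits rest on fewer peaks. A −log10 q of at least 30 was reached by 23 members (0.883%) and by 1489 shared intergenic peaks (25.3%). Of these, 5 members (21.7%, interval 9.66 to 41.9) and 4 shared peaks (0.269%, interval 0.105 to 0.689) were narrower than 200 bp. The narrowest of the 5 members, at chr5:66238520-66238663 between Rbm47 and Nsun7, was 144 bp wide with a fold of 15.8. At chr15:10898443-10898617, a member of 175 bp had a −log10 q of 33.5, and at chr4:12009244-12009436 a member of 193 bp reached 32.4. Mappability, copy number and duplicate reads at these places were not tested.

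**Figure D2:**
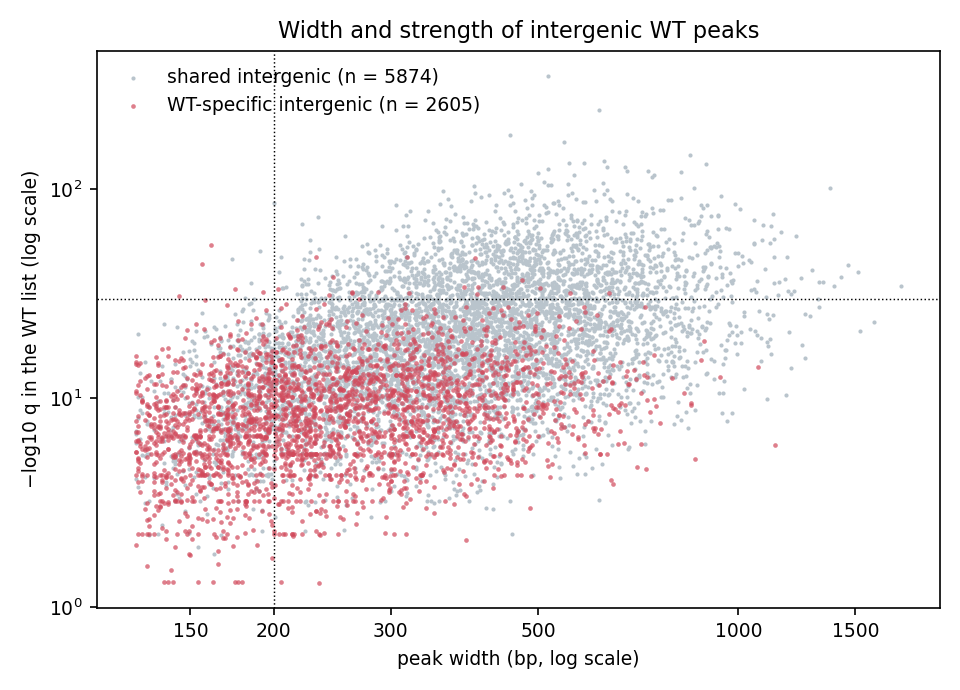
Peak width (x axis, bp, log scale) against −log10 q in the WT list (y axis, log scale) for 2605 WT-specific intergenic peaks (red) and 5874 shared intergenic peaks (grey). Dotted lines mark 200 bp and a −log10 q of 30; the upper left corner holds 5 WT-specific and 4 shared peaks.

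The 10 members with the highest −log10 q were examined singly. The first, at chr18:81402758-81402918, was 161 bp wide and had a −log10 q of 54.0 and a fold of 20.6. Its protein-coding neighbours were Sall3, a zinc finger factor gene 416 kb away, and Galr1, a galanin receptor gene 989.7 kb away. The nearest Runx1KO peak in the deposited list was 149.7 kb away. Peak names carry running numbers, described below, and 7 were missing between the Runx1KO peaks on both sides of this member. Each of the 10 had from 1 to 7 such missing numbers, so a Runx1KO call absent from the list may have lain at the member or elsewhere in the stretch. The second, at chr1:90740226-90740543, had a −log10 q of 47.4 and a fold of 16.8 and stood 26.5 kb from Col6a3, which encodes a chain of collagen VI, a matrix protein of muscle. A further 2 members had Col6a3 as nearest protein-coding gene, at 32.5 and 4.69 kb, with a −log10 q of 12.8 and 10.3. No peak stood at the ends of Col6a3 in either list.

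The next members were chr1:41365372-41365603, between Tmem182 and Pou3f3 with a −log10 q of 47.3, and chr4:4219696-4220097, 81.1 kb from the proenkephalin gene Penk with 47.2. After them came chr5:9810877-9811032, 85.6 kb from the glutamate receptor gene Grm3, with a fold of 21.4, the highest of all members, and a −log10 q of 43.9. Its nearest Runx1KO peak in the deposited list was 649 kb away, with 3 Runx1KO numbers missing in the stretch around it. The member at chr19:10495715-10495960 was in a more crowded place, 4.39 kb from Ppp1r32 and 1.98 kb from a Runx1KO peak, and had a −log10 q of 38.2. The next 4 had values between 34.0 and 36.9. They were chr8:93770727-93771198 near Gnao1, chr6:145906060-145906465 near Sspn, chr3:145640614-145641000 near Ccn1 and chr10:96273987-96274429 between Eea1 and Btg1. Sspn encodes sarcospan of the dystrophin-associated complex, and it was 25.6 kb from its member. Ccn1 encodes a matricellular protein and was 6.16 kb away.

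Members and shared intergenic peaks lay at similar distances from genes. The median distance to the nearest gene of any type was 11.3 kb for members (interval 10.6 to 12) and 11.9 kb for shared intergenic peaks (interval 11.4 to 12.4). To the nearest protein-coding gene it was 27.6 kb (interval 25.9 to 29.8) and 29.9 kb (interval 28.5 to 31.2). Beyond 100 kb from a protein-coding gene lay 23.5% of members and 22.6% of shared intergenic peaks, and within 5 kb 13.5% of each. The difference of the medians for any gene was −0.571 kb with an interval from −1.78 to 0.632, which includes 0. Runx1KO-specific intergenic peaks lay farther out, with a median of 16.6 kb (interval 14.6 to 18.1) to any gene and 42.0 kb (interval 36.3 to 48.5) to a protein-coding gene.

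At the limit of the rule, the members closest to a gene were chr7:141008410-141008768, 1000.5 bp from Ifitm3 with a −log10 q of 7.60, and chr14:30877899-30878542, 1010 bp from Stimate with 21.5. Just outside the rule were chr9:117717484-117717736, 996 bp from the noncoding gene Gm39450 with 8.46, and chr4:141330057-141330695, 992 bp from Epha2 with 16.7. The most distant member, chr14:91849353-91849625, was 519 kb from any gene, between Pcdh20 and Pcdh9, and had a −log10 q of 13.1.

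The type of the nearest gene had similar shares in both classes. The nearest gene was protein coding for 41.7% of members and 40.7% of shared intergenic peaks. It was a long noncoding RNA gene for 36.6% and 37.4%, and a pseudogene for 15.5% and 16.0%. The nearest protein-coding gene had a peak within 1 kb of a gene end in both lists for 45.3% of members (interval 43.4 to 47.3) and 48.8% of shared intergenic peaks (interval 47.5 to 50.1). It had such a peak in the WT list alone for 7.75% of members (202 peaks, interval 6.79 to 8.84) and 6.79% of shared intergenic peaks (399 peaks, interval 6.18 to 7.46), and in neither list for 45.2% and 43.0%. The intervals for peaks in both lists did not overlap, by a small margin, and those for the WT list alone did.

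Members stood farther from the nearest shared peak, at any position, than shared intergenic peaks stood from the next shared peak. The median distance to the nearest shared WT peak was 18.4 kb for members (interval 16.9 to 19.7) and 13.9 kb for shared intergenic peaks to the next shared peak (interval 13.4 to 14.5). Shared peaks that are nearest to each other enter with the same distance. Their values are therefore not independent, and the interval for shared peaks may be too narrow. A shared peak lay within 10 kb of 33.7% of members (interval 32.0 to 35.6) and of 39.7% of shared intergenic peaks (interval 38.5 to 41.0). Weighted to the strength of the members, the shared peaks had a median of 15.5 kb, for which no interval was computed. The number of WT peaks within 100 kb had a median of 5 in both classes. The median distance from a member to a Runx1KO peak was 16.3 kb, 2.99% of members (78) had one within 1 kb and 9.94% (259) had none within 100 kb.

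**Figure D3:**
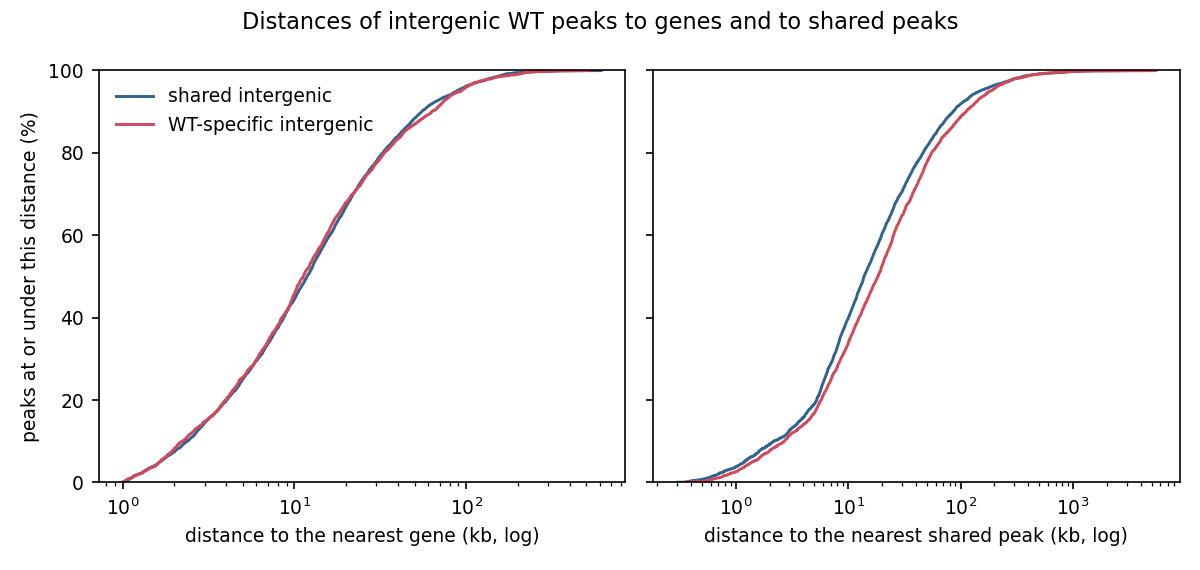
Cumulative percentage of peaks (y axis) by distance to the nearest gene of any type (left) and to the nearest other shared WT peak (right), in kb on a log scale, for WT-specific (red) and shared (blue) intergenic peaks. The curves coincide on the left (medians 11.3 and 11.9 kb), and the WT-specific curve lies to the right of the shared one on the right (medians 18.4 and 13.9 kb).

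Peak names carry running numbers that increase with position, with gaps. A number missing from the Runx1KO list is taken here as a call that is not in the deposited list. For 2599 members with Runx1KO peaks on both sides, 333 (12.8%, interval 11.6 to 14.2) had no missing number between those peaks. At these members the Runx1KO library had no numbered call at all in the stretch. The share was 13.6% for unmarked WT-specific peaks in gene bodies (interval 12.6 to 14.6) and 10.7% for those at gene ends (interval 9.28 to 12.4). These shares were not matched for the length of the stretch. Its median was 88.4 kb for members, 71.2 kb in gene bodies and 71.0 kb at gene ends. With stretches in 5 classes of length, the share was 30% in the shortest (1.27 to 30.2 kb) and 2.69% in the longest (292 kb and more). At the other members a missing call may have lain at the member or elsewhere in the stretch, since only its number is known.

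Among the members with no numbered Runx1KO call beside them, the strongest was chr1:163221748-163222230. It had a −log10 q of 25.1 and a fold of 12 and lay 23.1 kb from Prrx1, a homeobox gene of mesenchymal cells, with a Runx1KO peak only 0.599 kb from its centre. The next were chr3:50029651-50029916, between Pcdh18 and Slc7a11, with a −log10 q of 22.9, and chr4:136070036-136070380 with 22.6. The latter lay between Rpl11 and Id3, an inhibitor of myogenic bHLH factors 73.6 kb away. Each of these 3 members had a Runx1KO peak within 10 kb and no Runx1KO call, retained or missing, at its own place.

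Most members stood alone. Members less than 50 kb from the next were joined into runs, and 1709 members (65.6%) had no other within that distance. Pairs held 608 members, runs of 3 held 186 and runs of 4 held 72. The 6 largest runs had 5 members each. They lay between Ifng and Dyrk2 on chromosome 10, between Tmem17 and B3gnt2 and around Dlx3 on chromosome 11, between Prkch and Hif1a on chromosome 12, beyond Fgf9 on chromosome 14 and between Cyp26a1 and Myof on chromosome 19. Dlx3 is a homeobox gene, Hif1a encodes the hypoxia-inducible factor subunit, and Myof encodes myoferlin, a membrane protein of myoblast fusion.

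The runs differed in what else they held. The run between Prkch and Hif1a, of 96.0 kb, held 5 shared peaks beside its 5 members. The run between Cyp26a1 and Myof, of 137 kb, held 1 shared peak, and its members had a −log10 q of 22.0, 8.79, 10.5, 13.6 and 5.63. The run between Ifng and Dyrk2, chr10:118640343-118710009, held no shared peak. It was also the only run of the 6 with neither a Runx1KO peak nor a missing Runx1KO number.

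Stretches in which WT-specific peaks followed each other with no Runx1KO peak between them were ranked by their number of members. The first, chr4:105226116-105560416, was 334 kb long and held 8 WT-specific peaks, 7 of them members, beginning inside Plpp3. This gene encodes a phosphatase that degrades lysophosphatidic acid, a lipid signal. In their order away from the gene the 7 members had a −log10 q of 9.65, 14.2, 9.71, 11.9, 2.27, 5.15 and 2.45. The 3 nearest lay 21.3, 28.7 and 46.1 kb from Plpp3 and were 324, 300 and 528 bp wide. Within the stretch, the values were higher in the 4 members nearest to the gene than in the other 3. This order did not hold beyond it, where the members 378 and 539 kb from Plpp3 had a −log10 q of 19.7 and 3.23. The value of 19.7 was the highest of all members with Plpp3 as nearest protein-coding gene. In this stretch 5 Runx1KO numbers were missing.

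The second stretch, chr10:118561588-118710009, was 148 kb long, contained no gene of the protein-coding set and held 6 WT peaks, all of them members. It includes the run between Ifng, the interferon gamma gene, and the kinase gene Dyrk2. Its members had a −log10 q of 10.9, 5.50, 6.68, 3.75, 4.30 and 7.82 and a fold of 8.21, 5.53, 5.94, 4.51, 5.09 and 6.68. All but the first had a −log10 q below the member median of 8.33, and all were at most 259 bp wide. The Runx1KO library had 0 retained peaks and 0 missing numbers over the whole stretch, and the nearest Runx1KO peak was between 37.2 and 107 kb from each member.

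**Figure D4:**
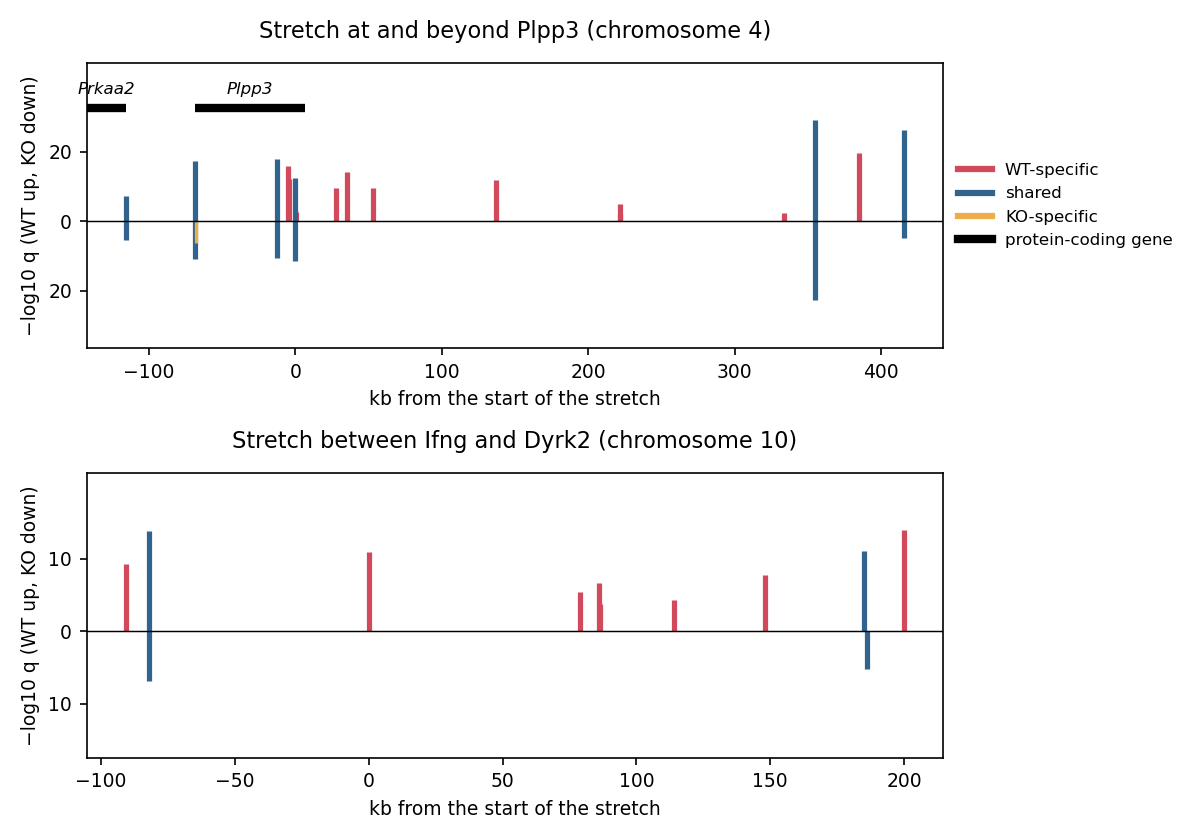
The 2 stretches with the most consecutive WT-specific members, with kb from the start of the stretch on the x axis and the −log10 q of each peak on the y axis, WT peaks upward and Runx1KO peaks downward; colours give the peak class and black bars protein-coding genes. Between the flanking shared peaks, 7 members follow each other beyond Plpp3 and 6 between Ifng and Dyrk2, where the Runx1KO side is empty; bars of members under 1 kb apart overlap. The height of WT and Runx1KO bars comes from libraries of unknown depth.

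Members were spread over many genes. They had 1866 protein-coding genes as nearest gene, of which 1386 had 1 member and 28 had 5 or more. The genes with the most were Gsdmc, a gasdermin gene, and Plpp3, with 9 each, then Med13l, a subunit of the Mediator kinase module, and Sox9, a factor of cartilage formation, with 7 each. Among the genes with 6, the first by name were Bckdhb, Bcor, Cntn5, Cxcl12, Fgf9 and Gadd45g. The count depends on how a gene is assigned. Counting the nearest gene of any type left 2 members at Plpp3, 2 at Med13l, 3 at Gadd45g, 1 at Cxcl12 and 0 at the other 6.

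Shared intergenic peaks gave the comparison for these genes. Plpp3 had 2 shared intergenic peaks beside its 9 members, and Cntn5, a neural adhesion gene, 2 beside its 6. Gadd45g, a growth arrest and stress gene, had 12 shared intergenic peaks, Gsdmc 11 and Sox9 10. The 9 members nearest to Gsdmc lay 249 to 886 kb from it, in the desert between Myc and Gsdmc, and had a −log10 q from 5.39 to 12.7. The 7 members nearest to Sox9 lay 159.5 to 338 kb away on both sides of the gene and were stronger, from 4.40 to 22.4 with a median of 13.1. Those of Fgf9, a growth factor gene, lay 231 to 439 kb away, from 3.16 to 17.5.

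**Figure D5:**
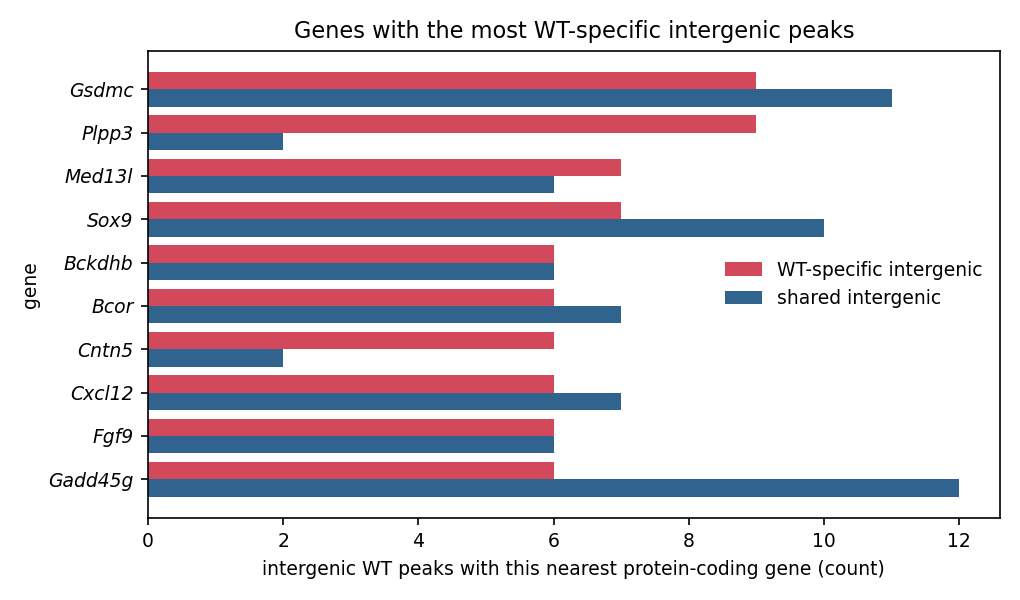
Number of intergenic WT peaks (x axis) with a given nearest protein-coding gene (y axis), for the 10 genes with the most WT-specific members (ties by name), with WT-specific peaks in red and shared peaks in blue. Plpp3 (9 and 2) and Cntn5 (6 and 2) have more WT-specific than shared peaks by the widest margins, and Gadd45g has 12 shared and 6 WT-specific ones.

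The ends of these 10 genes were read in both lists. Plpp3, Sox9 and Gadd45g had 1 gene end peak in each list, Med13l and Cxcl12 1 in the WT list alone, and the other 5 none. The 250 bases before the RefSeq start (GRCm38.p6, plus strand) are shown for the 3 of these genes whose promoter window in the table was met by a WT peak, since they place an open or WT-specific promoter beside WT-specific distal members. Capitals mark a match, on either strand, to the RUNX core TGTGGT, the ETS letters CCGGAAG, the AP-1 letters TGACTCA, the E-boxes CAGCTG and CACCTG or the TEAD letters GGAATG.
Plpp3, chr4:105157097-105157346: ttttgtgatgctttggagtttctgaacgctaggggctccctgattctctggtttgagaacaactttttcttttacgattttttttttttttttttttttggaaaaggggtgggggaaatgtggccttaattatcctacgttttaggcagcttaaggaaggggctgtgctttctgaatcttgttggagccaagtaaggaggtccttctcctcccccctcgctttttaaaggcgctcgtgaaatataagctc
Gadd45g, chr13:51846425-51846674: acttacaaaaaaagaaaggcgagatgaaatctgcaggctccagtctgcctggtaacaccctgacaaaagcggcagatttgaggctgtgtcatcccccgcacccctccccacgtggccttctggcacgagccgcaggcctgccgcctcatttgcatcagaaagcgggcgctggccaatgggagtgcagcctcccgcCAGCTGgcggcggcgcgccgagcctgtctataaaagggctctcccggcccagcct
Cxcl12, chr6:117168285-117168534: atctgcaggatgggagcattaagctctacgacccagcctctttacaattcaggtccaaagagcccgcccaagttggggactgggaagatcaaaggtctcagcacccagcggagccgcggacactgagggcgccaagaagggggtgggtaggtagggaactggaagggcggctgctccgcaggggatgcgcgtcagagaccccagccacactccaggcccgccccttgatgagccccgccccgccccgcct

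At Plpp3 the WT peak over this window, chr4:105157261-105157759, was a shared peak with a −log10 q of 17.4 and a fold of 9.46, and a Runx1KO peak stood there too. The promoter was therefore open in both lists while 7 successive distal members beyond the gene were in the WT list only. At Gadd45g the WT peak had a −log10 q of 17.4 and a Runx1KO partner, and its window held 1 E-box, CAGCTG. At Cxcl12, which encodes the chemokine ligand of Cxcr4, the WT peak began just after the start, at chr6:117168548-117168692. It was WT specific and weak, with a −log10 q of 4.58, and the gene had 6 members at 4.24 to 324 kb. The other letters searched were not in these windows. Over all 32851 windows of this length, TGTGGT was found in 14.0%, CCGGAAG in 6.91%, TGACTCA in 4.46%, CAGCTG in 13.0%, CACCTG in 17.2% and GGAATG in 12.6%. Sequences of the members themselves were not analysed here.

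Runx1 itself was the nearest protein-coding gene of 4 members and 15 shared intergenic peaks. No gene of the lists had the 5 members set for naming, so Runx1 and the list genes named after it were chosen after their values had been seen. On chromosome 16, the members lay at 92581883-92582196, 92852275-92852705, 93092788-93093216 and 93153060-93153499. They were 19.4, 26.4, 267 and 327 kb from the gene and had a −log10 q of 7.31, 18.4, 9.16 and 26.5. The strongest was thus also the farthest, with a fold of 11.8 and a Runx1KO peak 2.59 kb away. Around these members 3, 3, 1 and 1 Runx1KO numbers were missing. The Runx1 ends had 1 peak in each list, a count that cannot show whether or how the gene was edited.

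Of the 10 RUNX genes and partners, 5 were the nearest gene of a member, with 11 members against 31 shared intergenic peaks (26.2% members, interval 15.3 to 41.1). Among all intergenic peaks the corresponding share was 30.7%. Tle3, a corepressor gene, had 3 members and Runx3 had 2. Of 12 ETS genes, 2 had a member, with 3 members against 16 shared peaks (15.8%, interval 5.52 to 37.6). Ets1 held 2 of the 3, at 78.7 to 483 kb. Neither share stood apart from 30.7% by its counting interval.

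Of 15 myogenic regulators, 7 had a member, with 10 members against 20 shared peaks (33.3%, interval 19.2 to 51.2). Of 12 TEAD and AP-1 genes, 4 had 6 members in all (27.3% of peaks), 3 of them at Tead1. Of 18 genes of muscle structure, 3 had 4 members in all against 17 shared peaks (19.0%, interval 7.67 to 40), 2 of them at Ncam1, a surface adhesion gene of myoblasts. Of 19 matrix and guidance genes, 11 had a member, with 19 members against 37 shared peaks (33.9%, interval 22.9 to 47.0). Of 16 signalling genes, 5 had 1 member each against 25 shared peaks (16.7%, interval 7.34 to 33.6). Each list's interval included 30.7%.

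Among the list genes with at least 2 members, Pax3, Tcf12, Tead1 and Slit3 had more members than shared intergenic peaks, and 2 of them are described here. Pax3, a regulator of muscle progenitors, had 2 members and no shared intergenic peak. The members lay at chr1:78057805-78058191 and chr1:78088748-78089170, 43.3 and 12.3 kb from the gene, with a −log10 q of 11.7 and 15.4. The nearest Runx1KO peak was 93.1 kb from the closer of them, with 3 Runx1KO numbers missing around each member. The ends of Pax3 had no peak in either list. Slit3, which encodes a guidance ligand of Robo receptors, had 4 members and 2 shared intergenic peaks. Its members lay 57.9 to 141 kb away on chromosome 11 and had a −log10 q of 5.42, 10.4, 16.0 and 4.93, and the strongest, chr11:35053202-35053948, was 747 bp wide.

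Across chromosomes, members made up between 27.2% of the unmarked intergenic peaks on chromosome 8 (116 of the members, interval 23.2 to 31.6) and 36.5% on chromosome 13 (167 members, interval 32.2 to 41.0). Chromosome 13 was the only chromosome whose interval lay wholly above 30.7%. On chromosome 1, with 205 members the most of any, the interval of 24.3 to 30.6 lay just under it. No allowance was made for comparing 20 chromosomes.

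The 276 intergenic WT-specific peaks with a filled column 11 were wider than the members, with a median of 311 bp (interval 292 to 324) against 236 bp. Their median −log10 q of 9.55 (interval 8.46 to 10.4) had an interval that overlapped that of the members, from 8.07 to 8.57. Distances to genes (median 10.8 kb, interval 8.69 to 13.6) and to shared peaks (19.9 kb, interval 15.9 to 22.6) had intervals that overlapped those of the members. Each filled cell repeats the start of its own peak, and what it stands for is not given in the sources used here.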

How the data were processed

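ATAC-seq peak lists of growth-medium WT and Runx1KO C2C12 cells were used, with values of 1 library per genotype. The aligner, peak caller and filters are not given in the sources used here; the build is mm10, per the submitters' processing notes. The lists have no header line and were read in the usual narrowPeak column order. The deposited values are the fold (a ratio to local background), −log10 p, −log10 q and a score, all by the authors. Depth is unknown. The deposited columns were read without rescaling.

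Distances ran from peak centres to genes of the RefSeq table (GRCm38.p6, the NCBI name of the mm10 assembly with patches). Strengths were compared within the WT list. Shares have Wilson intervals and medians order-statistic intervals. Functions were checked against bedtools 2.31.1 and on simulated intervals, with 7 of 7 checks passed (Python 3.11.15, numpy 2.4.6, pandas 2.3.3, scipy 1.17.1). Named were the 10 protein-coding genes with the most members, the 10 strongest members, the largest runs and list genes with at least 5 members, which no list gene had. List genes named with fewer, the narrow strong members and the members without a missing Runx1KO number were chosen after their values were seen. The stretches of consecutive WT-specific peaks and the promoter windows shown were not among the items planned for naming. Members and lists were chosen with earlier results of these data known. Sequence content of peaks was planned and not run, since no genome was used.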

Additional observations from a re-analysis of the deposited data

Results flagged for a closer look

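The unlabelled column of the specific lists drew attention because its meaning is not given in the sources used here, although the rule for members requires it to be empty. It was filled for 9.58% of the intergenic WT-specific peaks (276 of 2881, interval 8.56 to 10.7) and for 1.99% of the intergenic Runx1KO-specific peaks (19 of 953, interval 1.28 to 3.09). The difference was not tested, since each list comes from 1 library.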

How the results depend on the processing

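The sign of 1 difference turned, that in distance to the nearest gene, and 36 alternative values of the main results lay within the counting interval of the reported value, or within 1.5 times a count, while 11 moved further. The number of members was 1413 with a gene distance of 10 kb and 987 at a −log10 q of at least 10. At that threshold the specific share of intergenic peaks was 17.0%, and the differences from shared intergenic peaks were −127 bp in width, −2.29 in fold and −9.01 in −log10 q. Each follows from leaving out weaker or nearer peaks. The specific share was 32.9% with marked peaks included and 38.5% with a reciprocal overlap of 50%. The difference in distance to the nearest gene was −0.571 kb (range −1.78 to 0.632) as reported and 0.988 kb (range −1.29 to 2.95) with the gene distance of 10 kb. Both ranges include 0. Chosen after seeing the data, weighting by strength gave a width difference of −56 bp, and equal strength a gap of 7.85 points between the intergenic and gene end shares, against 15.9. Assigning members to the nearest gene of any type moved the counts of all 10 named genes. GC content and motifs of members were not run. No paired analysis was possible because each genotype has values of 1 library. Unknown depth limits every statement on peaks absent from the Runx1KO list.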
